A study of Mus musculus with 8 samples.

Results

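The genes described here are those of the proteasome, the protease that degrades ubiquitin-tagged proteins, in the livers of mice given an adenovirus that carried a short hairpin RNA. They were picked by symbol: every gene whose name starts with Psma, Psmb, Psmc, Psmd, Psme, Psmf or Psmg and a number, with pseudogene names (those holding -ps, of which there were 0) left out. This gave 50 of the 24062 gene entries of the count tables, and 49 of the 50 passed the filter on low counts and were tested. The members comprised 7 alpha and 7 constitutive beta subunits of the 20S core, 6 ATPases and 11 other subunits of the 19S regulatory particle, 3 immunoproteasome subunits, 5 activators or inhibitors, 7 assembly factors and 4 further genes.

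Total RNA depleted of ribosomal RNA was sequenced from liver of lean C57BL/6 mice, wild type apart from the virus, in 8 libraries, 2 per group. The shDnajb9 group had received a virus against Dnajb9, an endoplasmic reticulum co-chaperone, and its control group lacZ1 a lacZ virus, all at 3 months of age. The shRictor group had received a virus against Rictor, a subunit of the kinase complex mTORC2, and its control group lacZ2 a lacZ virus, all at 4 months. Each mouse got 0.1 OD of virus and was killed 1 week later after 6 h without food, so every group, controls included, carried an adenovirus. The labels do not say what the lacZ virus expressed, nor whether each library is a different mouse, so the p-values measure only the spread between these samples.

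The libraries held between 6426164 and 11383532 counts in genes, and between 32107 and 49427 of these fell on proteasome genes. Levels below are CPM, counts brought to a common library size, here scaled by the TMM method, which equalises the bulk of genes between libraries. Fold changes come from edgeR's quasi-likelihood fit over all 8 libraries and 13767 genes, with Benjamini-Hochberg adjustment over all of these genes. A gene is said to have risen or fallen where its adjusted p was under 0.05. Dnajb9 had 22 and 20.3 CPM in the shDnajb9 libraries, against 30.6 and 38.0 CPM in the lacZ1 libraries, a 0.617-fold level (edgeR adjusted p = 0.056). Rictor had 40.1 and 42.0 CPM in the shRictor libraries, against 52.3 and 65.2 CPM in the lacZ2 libraries, a 0.698-fold level (edgeR adjusted p = 0.231). Both targeted genes were therefore lower in every library of their knockdown group, and neither passed the test. Rictor was also lower in both shDnajb9 libraries, at 33.3 and 63.4 CPM, against 65.4 and 68.8 CPM in the lacZ1 libraries (log2 fold change -0.46, edgeR adjusted p = 0.239). Most of that difference came from shDnajb9 replicate 1. Lower Rictor values were thus seen in both knockdowns, without passing the test in either. Dnajb9 was higher in the shRictor libraries, at 61.1 and 43.8 CPM, against 40.4 and 38.8 CPM in the lacZ2 libraries. The hepatocyte markers Alb, Apoa1 and Ttr were abundant in all 8 libraries, Alb at 12022 CPM or more.

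The 26S proteasome consists of a barrel-shaped 20S core, whose inner beta subunits cut proteins, and 19S particles at its ends, whose ATPases unfold ubiquitinated substrates and feed them in. Under interferon-gamma, cells replace the cutting subunits Psmb5, Psmb6 and Psmb7 with Psmb8, Psmb9 and Psmb10, which gives the immunoproteasome and favours peptides presented on MHC class I. In liver the proteasome also removes misfolded secretory proteins extracted from the endoplasmic reticulum, and its genes are known to be induced together by the transcription factor Nfe2l1 when proteasome activity is short.

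To show the DNA before the start sites of genes that the results turn on, the 250 bases upstream of 3 members are given below, 5′ to 3′ in the direction of transcription (RefSeq, GRCm38.p6). Psma6 (chr12:55383972-55384221, + strand) and Psmb6 (chr11:70525107-70525356, + strand) are core subunits that rose in shDnajb9 livers, and Psmd9 (chr5:123227940-123228189, + strand) is the assembly factor that rose in both knockdowns. None of these 3 windows holds an annotated GENCODE exon, and Psma6 has a further RefSeq start that is not shown. Capitals mark matches to 4 motifs searched on both strands: TGACNNNGC, the core of the antioxidant response element bound by Nfe2l2 and Nfe2l1, CCAAT, the box bound by NF-Y, TTCNNNGAA, the gamma interferon activation site, and GAAA followed by any 2 bases and GAAA, the core of the interferon-stimulated response element.
Psma6: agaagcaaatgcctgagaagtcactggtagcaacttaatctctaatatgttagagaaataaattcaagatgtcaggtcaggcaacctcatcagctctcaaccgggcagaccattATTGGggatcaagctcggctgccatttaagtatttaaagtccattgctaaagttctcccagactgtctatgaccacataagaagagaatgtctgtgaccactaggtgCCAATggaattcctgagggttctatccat
Psmb6: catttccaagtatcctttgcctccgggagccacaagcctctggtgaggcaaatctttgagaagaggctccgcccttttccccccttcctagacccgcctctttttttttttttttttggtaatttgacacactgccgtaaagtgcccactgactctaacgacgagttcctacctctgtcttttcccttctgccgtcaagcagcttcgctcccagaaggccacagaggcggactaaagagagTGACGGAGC
Psmd9: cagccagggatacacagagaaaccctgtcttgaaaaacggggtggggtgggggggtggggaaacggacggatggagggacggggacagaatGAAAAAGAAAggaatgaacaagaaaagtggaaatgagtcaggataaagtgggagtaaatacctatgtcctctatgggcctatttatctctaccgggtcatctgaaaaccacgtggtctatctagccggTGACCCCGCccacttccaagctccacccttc

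The Psma6 window holds 2 CCAAT boxes, at 136 bases before the start as ATTGG and at 29 bases as CCAAT. Psmb6 holds TGACGGAGC at 9 bases before its start. Psmd9 holds TGACCCCGC at 31 bases and GAAAAAGAAA at 159 bases before its start. RefSeq promoters were at hand for 42 of the 50 members, with 45 start sites. TGACNNNGC was present in 5 of these 45 windows, or 11.1%, against 10.2% of all 32851 promoter windows of the same length. The genes holding it were Psmb5, Psmb6, Psmc6, Psmd9 and Psmd12. CCAAT was present in 33.3% of the members' windows, against 33.8% of all windows. TTCNNNGAA occurred in 2 of the 45, at Psmb8 and Psmg1, or 4.44%, against 7.02% of all windows. The interferon-stimulated core occurred in 3 of the 45, at Psmb3, Psmd4 and Psmd9, or 6.67%, against 2.98% of all. These matches are letters only and say nothing on binding, and the shares of the members were close to those of all genes except for the last motif, where 3 windows make the difference.

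Levels differed widely between subunits, and here they are compared per kilobase of the longest annotated transcript, as mean CPM per kb over the 8 libraries. Psmb6 was the highest of the 49, at 257 CPM per kb, and Psmb5 the lowest constitutive beta subunit, at 32.0 CPM per kb. Among alpha subunits Psma7 led with 131 CPM per kb and Psma2 was lowest with 12.7 CPM per kb. The median was 65.2 CPM per kb over the 6 ATPases, 49.5 CPM per kb over the 11 other 19S subunits and 53.3 CPM per kb over the 3 immunoproteasome subunits. Assembly factors, which act on the particles before they are complete, had a median of 13.0 CPM per kb. Psme1 and Psme2, which form the interferon-inducible activator PA28, stood at 202 and 117 CPM per kb. The testis subunit Psma8 reached 0.449 CPM per kb, and the thymus subunit Psmb11 had 0 or 1 count in each library and was not tested. The longest transcript is not always the one a liver makes, so these levels are approximate, above all where it is much longer than the coding part, as for Psma2 with 2911 bases. Psmb5 shared 54.1% of its 50-base words with other annotated genes, chiefly the copy Gm3375, and Psma5 shared 50%, so that counts of both are uncertain.

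**Figure D1:**
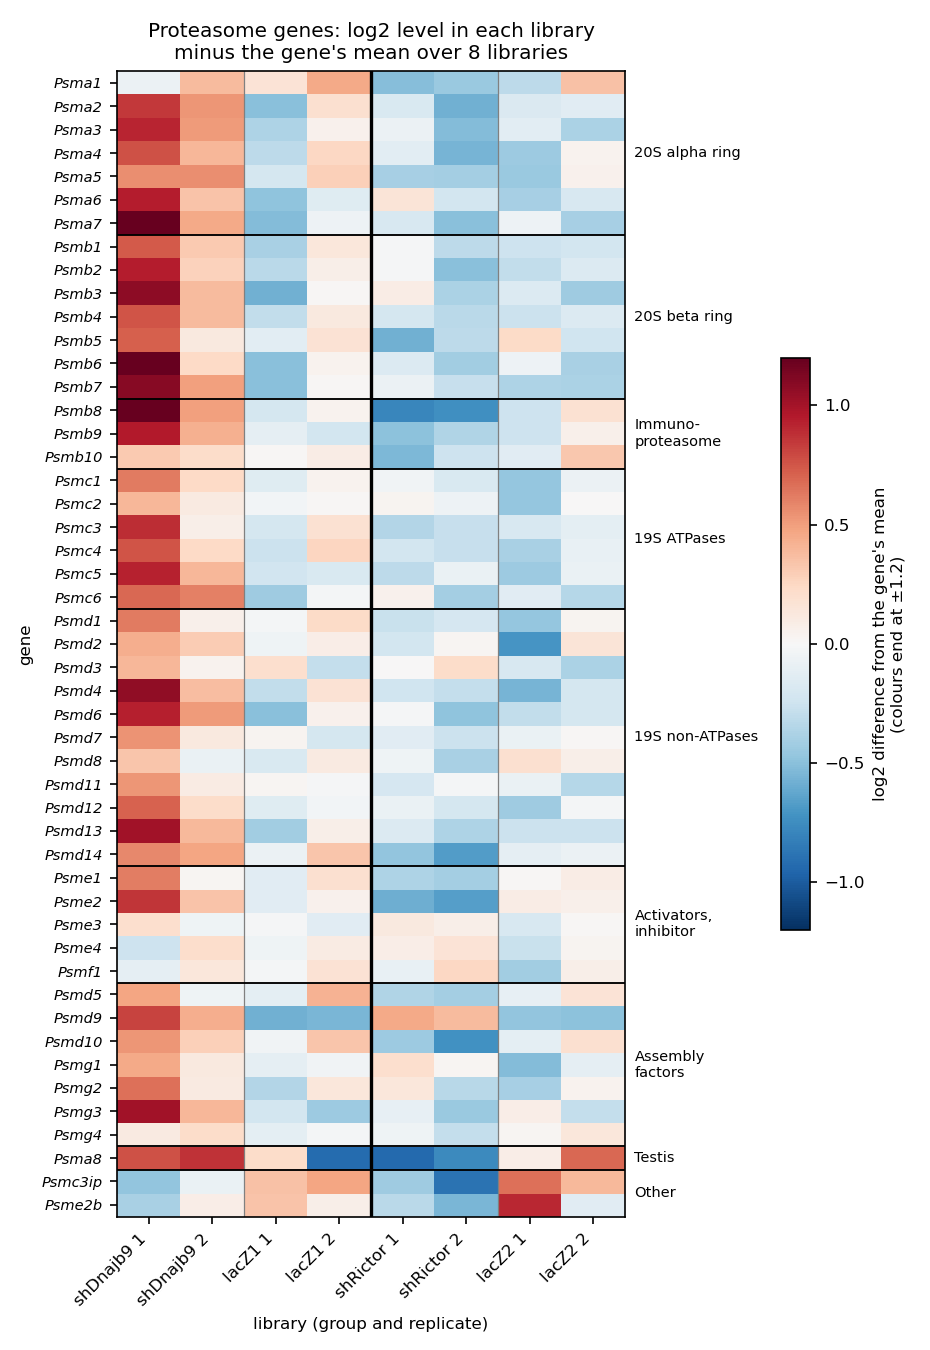
Level of each of the 49 tested proteasome genes (rows, by role) in each of the 8 libraries (columns), as log2 CPM minus the mean of that gene over the 8 libraries. Red marks values above the gene's mean, and blue values below it. Of the 31 constitutive 20S and 19S subunits, 30 lay above their mean in each shDnajb9 library. In the shRictor libraries 4 and 2 did, in lacZ1 4 and 23, and in lacZ2 2 and 7. Psmb8, Psmb9 and Psmb10 were blue in both shRictor libraries, as were most constitutive subunits.

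With the Dnajb9 hairpin, 15 of the 49 tested proteasome genes rose and 0 fell. Over all genes, 11.6% rose and 12.6% fell in this comparison, and 24.2% changed in either direction. The 15 were the core subunits Psma2, Psma3, Psma6, Psma7, Psmb3, Psmb6 and Psmb7, the 19S subunits Psmc5, Psmc6, Psmd6 and Psmd13, the immunoproteasome subunits Psmb8 and Psmb9, and the assembly factors Psmd9 and Psmg3. The median log2 fold change of the 49 was 0.50, and that of the 31 constitutive subunits 0.60, against -0.05 over all genes. Of the 49, 44 had a positive fold change, and in 33, or 67.3%, both shDnajb9 libraries lay above both lacZ1 libraries, against 32.4% of all genes. Both lay below in 1 member, Psmc3ip, against 35.1% of all genes. The 31 constitutive subunits summed to 5838 and 4107 CPM in the shDnajb9 libraries, against 2842 and 3580 CPM in the lacZ1 libraries.

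The sums show that the difference between shDnajb9 and lacZ1 livers was unequal among libraries: shDnajb9 replicate 1 was the highest, and lacZ1 replicate 1 the lowest. Only Psmd9 was called, 1 member of 49, when shDnajb9 replicate 1 was left out, and again only Psmd9 when lacZ1 replicate 1 was left out. Without lacZ1 replicate 2, 9 members were called, and without shDnajb9 replicate 2, 20. The share of all genes called moved as well, to 9.77% without shDnajb9 replicate 1, 7.07% without lacZ1 replicate 1, 14.4% without lacZ1 replicate 2 and 29.2% without shDnajb9 replicate 2. Scaling by total counts alone, which moved the median of all genes to -0.46, left Psmd9 as the 1 called member and a median of 0.07 over the members, where 610 of 13767 genes rose. As raw shares, proteasome genes took 0.550% and 0.486% of gene counts in shDnajb9 libraries and 0.441% and 0.505% in lacZ1 libraries, which overlap.

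**Figure D2:**
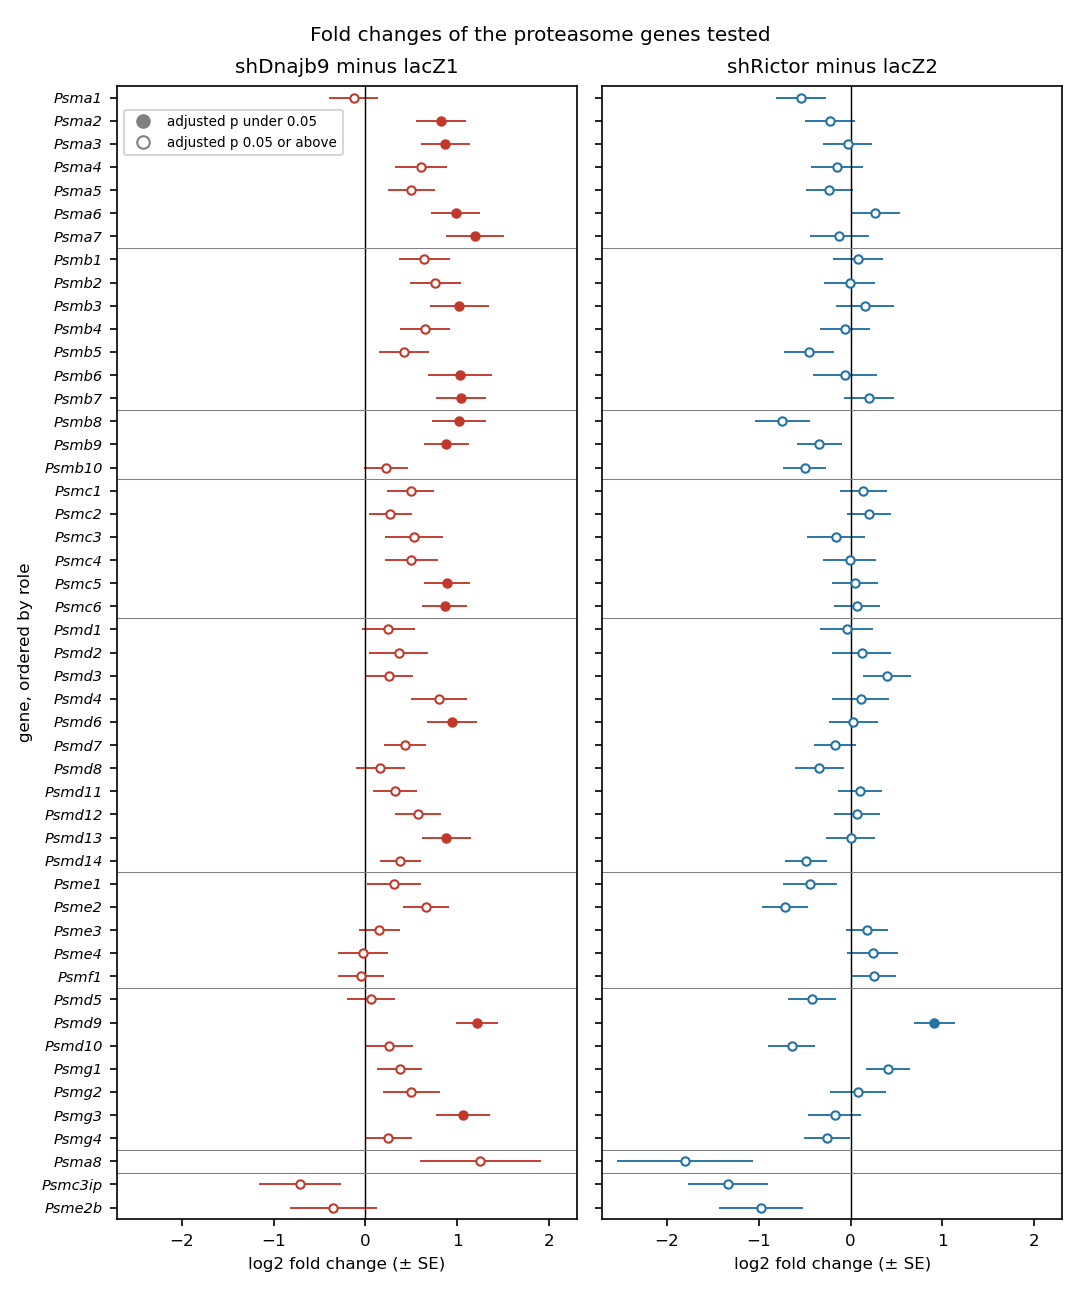
Log2 fold change with its standard error for each of the 49 tested genes, shDnajb9 minus lacZ1 on the left and shRictor minus lacZ2 on the right, with genes in order of role. Filled points had an adjusted p under 0.05: 15 on the left, all above 0, and 1 on the right, Psmd9.

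The alpha ring, which gates the core, had 4 of 7 members called in shDnajb9 livers, where 24.2% of all genes were called. Its median log2 fold change was 0.82. Psma7 had 335 and 188 CPM in the shDnajb9 libraries, against 96.4 and 133 CPM in the lacZ1 libraries. Both shDnajb9 values lay above both lacZ1 values, with replicate 1 far above the rest, and the log2 fold change was 1.19 ± 0.319 (SE, edgeR adjusted p = 0.0184). Psma6 had 145 and 95.7 CPM in the shDnajb9 libraries, against 54.0 and 68.0 CPM in the lacZ1 libraries, with no overlap (log2 fold change 0.98 ± 0.268, edgeR adjusted p = 0.0203). Psma3 had 163 and 124 CPM, against 67.2 and 90.3 CPM in lacZ1 livers, again without overlap (log2 fold change 0.87 ± 0.267, edgeR adjusted p = 0.0324). Psma2 rose as well (log2 fold change 0.82, edgeR adjusted p = 0.0442). Psma1 stood apart from its ring, with 69.6 and 95.3 CPM in shDnajb9 libraries, against 81.3 and 99.6 CPM in lacZ1 libraries.

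Among constitutive beta subunits, 3 of 7 rose, where 11.6% of all genes rose. All 7 fold changes were positive, with a median of 0.76. The caspase-like subunit Psmb6 had 450 and 224 CPM in the shDnajb9 libraries, against 134 and 195 CPM in the lacZ1 libraries. Its log2 fold change was 1.03 ± 0.349 (SE, edgeR adjusted p = 0.047), with shDnajb9 replicate 2 only a little above lacZ1 replicate 2. The Psmb6 call was lost in 13 of 21 alternatives run, among them the fit to the 4 libraries alone (edgeR adjusted p = 0.0551), the replicate block (0.058) and the length and GC correction (0.109). The trypsin-like subunit Psmb7 had 188 and 124 CPM in shDnajb9 livers, against 62.4 and 89.3 CPM in lacZ1 livers. The groups did not overlap, and the log2 fold change was 1.04 ± 0.274 (edgeR adjusted p = 0.0167). The chymotrypsin-like subunit Psmb5 had 45.9 and 30.3 CPM in shDnajb9 livers, against 25.4 and 31.4 CPM in lacZ1 livers, which overlap (edgeR adjusted p = 0.27). Psmb3, a structural beta subunit, had 317 and 196 CPM in shDnajb9 livers and 101 and 151 CPM in lacZ1 livers (log2 fold change 1.02 ± 0.321, edgeR adjusted p = 0.0349). Summed over the 14 constitutive core genes, the shDnajb9 mean was 1.75 times the lacZ1 mean.

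Within the 19S particle, 4 of 17 genes rose, where 11.6% of all genes rose, and all 17 fold changes were positive. The ATPase Psmc5 had 134 and 93.2 CPM in the shDnajb9 libraries, against 60.3 and 62.1 CPM in the lacZ1 libraries (log2 fold change 0.89 ± 0.252, edgeR adjusted p = 0.0235). Another ATPase, Psmc6, had 106 and 100 CPM in shDnajb9 livers, against 49.0 and 65.1 CPM in lacZ1 livers (log2 fold change 0.86 ± 0.247, edgeR adjusted p = 0.0253). For both ATPases the groups were apart, and for Psmc6 the shDnajb9 libraries were close to each other. Psmd6 and Psmd13, subunits of the lid, had log2 fold changes of 0.94 ± 0.270 and 0.88 ± 0.267 (edgeR adjusted p = 0.0248 and 0.0304). Psmd6 measured 131 and 97.8 CPM in shDnajb9 libraries, against 48.6 and 71.0 CPM in lacZ1 libraries. Psmd13 measured 136 and 88.3 CPM in shDnajb9 libraries, against 50.3 and 71.1 CPM in lacZ1 libraries. The scaffold subunits Psmd1 and Psmd2, at log2 fold changes of 0.25 and 0.36, and the deubiquitinase Psmd14, at 0.38, did not pass the test. The sum over the 17 genes was 1.41 times as high in shDnajb9 as in lacZ1 livers.

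In the same comparison 2 of the 3 immunoproteasome subunits rose, where 11.6% of all genes rose. Psmb8 (chr17:34197721-34201454, + strand, GENCODE M21 on GRCm38) had 270 and 156 CPM in the shDnajb9 libraries, against 96.1 and 114 CPM in the lacZ1 libraries. Both shDnajb9 values exceeded both lacZ1 values (log2 fold change 1.02 ± 0.296, edgeR adjusted p = 0.026). Psmb9 (chr17:34181987-34187764, - strand) had 115 and 79.8 CPM in shDnajb9 livers, against 55.0 and 50.8 CPM in lacZ1 livers, also apart (log2 fold change 0.88 ± 0.245, edgeR adjusted p = 0.022). Psmb10 (chr8:105935735-105938444, - strand) had 85.1 and 80.1 CPM in shDnajb9 livers, against 68.9 and 72.9 CPM in lacZ1 livers. The Psmb10 groups were apart by a small margin and the test was not passed (log2 fold change 0.22 ± 0.237, edgeR adjusted p = 0.514). Leaving out shDnajb9 replicate 1, lacZ1 replicate 1 or lacZ1 replicate 2 left 0 of the 3 called. The log2 fold changes of Psmb8 and Psmb9 were then between 0.57 and 0.60 without shDnajb9 replicate 1, between 0.86 and 0.91 without lacZ1 replicate 1 and between 0.81 and 1.14 without lacZ1 replicate 2. Psmb9 lies head to head with the peptide transporter gene Tap1, and 5.79% of its exon bases overlap Tap1 on the other strand. Tap1 itself had 147 and 156 CPM in shDnajb9 livers and 180 and 142 CPM in lacZ1 livers.

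**Figure D3:**
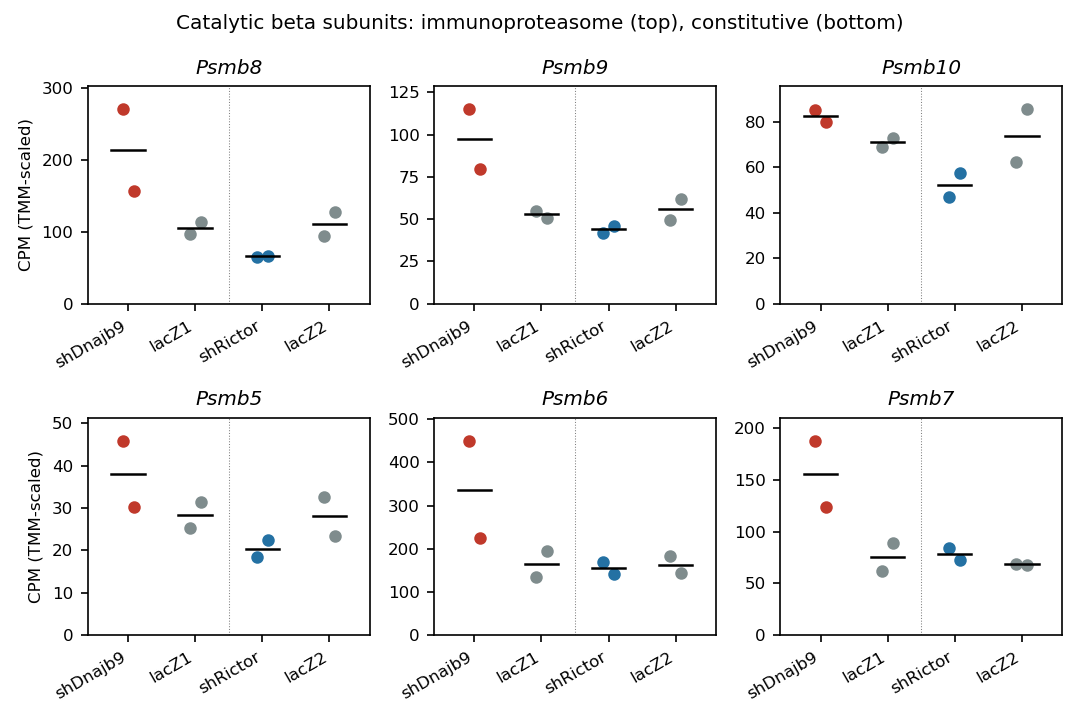
CPM (TMM-scaled) of the catalytic beta subunits in each library (points) with the group mean (line), immunoproteasome subunits in the top row above the constitutive subunit each one replaces. For Psmb8, Psmb9 and Psmb10 both shDnajb9 points lie above both lacZ1 points and both shRictor points lie below both lacZ2 points.

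Assembly factors gave 2 calls among 7 in shDnajb9 livers, where 24.2% of all genes were called. Psmd9, a chaperone of 19S base assembly also called p27, had 55.6 and 43.0 CPM in the shDnajb9 libraries, against 21.1 and 21.5 CPM in the lacZ1 libraries. The lacZ1 libraries were nearly equal and both shDnajb9 libraries lay far above them, a 2.31-fold level (log2 fold change 1.21 ± 0.228, edgeR adjusted p = 0.003). Psmg3, a chaperone of early core assembly, had 21.8 and 14.3 CPM in shDnajb9 livers, against 9.22 and 7.87 CPM in lacZ1 livers (log2 fold change 1.06 ± 0.289, edgeR adjusted p = 0.0202). Its partner Psmg4 did not pass the test, with a log2 fold change of 0.25. The base chaperones Psmd5 and Psmd10 had log2 fold changes of 0.06 and 0.26. Among activators and inhibitors, 0 of 5 were called. The nuclear activator Psme3, the activator Psme4 and the inhibitor Psmf1 had log2 fold changes of 0.15, -0.03 and -0.05.

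Psmd9 was the member with the smallest p in both knockdowns. In the shRictor libraries it had 43.3 and 41.3 CPM, against 22.7 and 22.3 CPM in the lacZ2 libraries. Both groups were tight and did not overlap (log2 fold change 0.91 ± 0.225, edgeR adjusted p = 0.0146). The shDnajb9 call held in all 21 alternatives run, with log2 fold changes between 0.77 and 1.38, whereas the shRictor call was lost in 6 of 20, among them each of the 4 fits that left out a shRictor or lacZ2 library. In those 4 fits the log2 fold change stayed between 0.88 and 0.95, with edgeR adjusted p between 0.0562 and 0.0805. GENCODE M21 places Psmd9 at chr5:123169413-123250131 on the + strand, and RefSeq starts it well downstream. The long GENCODE span encloses Hpd (chr5:123171807-123182727, - strand), the tyrosine-degrading enzyme, which rose in both knockdowns. Hpd had 2875 and 2345 CPM in shDnajb9 livers, against 379 and 458 CPM in lacZ1 livers, and 2091 and 1850 CPM in shRictor livers, against 165 and 461 CPM in lacZ2 livers. Of the exon bases of Psmd9, 25.5% overlap the antisense gene Gm26745. Of the 50-base words of Psmd9, 24.9% occur in other genes, nearly all of them in this same Gm26745 (24.7%), so that its counts are uncertain. Whether reads of these neighbours entered the Psmd9 counts was not tested, and the strand setting of the counting is not given in the sources used here.

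With the Rictor hairpin, Psmd9 was the 1 of 49 proteasome genes that rose, and 0 fell. Over all genes 7.31% rose and 10.9% fell, 18.2% in either direction, so the members' share was below the background. The median log2 fold change was -0.04 over the 49 members and -0.01 over the 31 constitutive subunits, against -0.02 over all genes. Constitutive subunits summed to 3015 and 2765 CPM in the shRictor libraries, against 2769 and 3056 CPM in the lacZ2 libraries, which overlap. None of the 31 passed the test, and at an unadjusted p under 0.05 none did either. Psmb6 had 170 and 142 CPM in shRictor livers, against 182 and 144 CPM in lacZ2 livers. Psmb7 had 84.2 and 72.9 CPM in shRictor livers, against 68.5 and 68.1 CPM in lacZ2 livers, and Psmb5 had 18.5 and 22.4 CPM, against 32.7 and 23.5 CPM. The groups overlapped for Psmb6 and were apart for Psmb7 and Psmb5, in opposite directions and without passing the test (edgeR adjusted p = 0.92, 0.666 and 0.283 for Psmb6, Psmb7 and Psmb5).

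All 3 immunoproteasome subunits had lower values in both shRictor libraries than in both lacZ2 libraries, and none passed the test. Psmb8 had 65.0 and 66.7 CPM in the shRictor libraries, against 93.6 and 127 CPM in the lacZ2 libraries (log2 fold change -0.74 ± 0.296, edgeR adjusted p = 0.103). Psmb10 had 47.1 and 57.5 CPM in shRictor livers, against 62.1 and 85.5 CPM in lacZ2 livers (log2 fold change -0.50 ± 0.238, edgeR adjusted p = 0.172). Psmb9 had 42.0 and 46.2 CPM in shRictor livers, against 49.7 and 61.7 CPM in lacZ2 livers (log2 fold change -0.34 ± 0.244, edgeR adjusted p = 0.383). In this comparison both libraries lay below both controls in 18 of the 49 members, or 36.7%, against 31.6% of all genes, and above both in 6, or 12.2%, against 28.8%. When libraries were scaled by total counts alone, which moved the median of all genes to -0.42, 12 members were called and all 12 fell, these 3 among them, with log2 fold changes of -1.14, -0.89 and -0.74 for Psmb8, Psmb10 and Psmb9. With that scaling 2810 of the 13767 genes fell, a share near that of the members. Psmb8 also fell in the fit corrected for transcript length and GC content (log2 fold change -0.75, edgeR adjusted p = 0.0409). Psme2, singled out after its values were seen, had 70.6 and 67.1 CPM in shRictor livers, against 113 and 111 CPM in lacZ2 livers (log2 fold change -0.71 ± 0.252, edgeR adjusted p = 0.0705), and it shares 28.3% of its 50-base words with its near copy Psme2b.

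The direct test of the difference between the knockdowns, the shRictor effect minus the shDnajb9 effect, called 0 of the 49 members with edgeR and 1 of the 13767 genes, a share of 0.00726%. At an unadjusted p under 0.05, 17 members passed, all with a negative difference. Of the 13767 genes, 744 passed with a positive and 751 with a negative difference. The median difference was -0.71 over the members, against -0.01 over all genes. With a correction for transcript length and GC content, 9 members passed and their median was -0.34. Without that correction Psmb8 had the smallest p of the members (log2 difference -1.76 ± 0.418, edgeR adjusted p = 0.296), followed by Psme2 at -1.37 and Psmb9 at -1.21. Psmb8 was called by DESeq2 and by edgeR without the filter on low counts, but by no other alternative run, so no member's response can be said to differ between the hairpins on this test. As a count, 9 of the 49 members had both shDnajb9 libraries above both lacZ1 libraries and both shRictor libraries below both lacZ2 libraries, against 1.96% of all genes. The 9 were Psmb8, Psmb9, Psmb10, Psme2, Psma2, Psma8, Psmd7, Psmd14 and Psmg4. With the length and GC correction the count was 4, against 1.87% of all genes, and with total counts alone 12, against 2.3%. Psmb7, Psmd9 and Psmg1 lay above both controls in both knockdowns, 3 of 49, against 19% of all genes.

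Averaged over both hairpins against both lacZ groups, 3 members rose and 1 fell, where 16.7% of all genes rose and 19.5% fell (36.2% in either direction). The 3 were Psmd9 (log2 fold change 1.06 ± 0.160, edgeR adjusted p = 0.000294), Psma6 (0.62 ± 0.189, 0.0209) and Psmb7 (0.62 ± 0.193, 0.0233). The 1 that fell was Psmc3ip, which the name rule catches although its protein acts in meiotic recombination. Psmc3ip had 1.26 and 1.71 CPM in shDnajb9 livers, against 2.39 and 2.62 CPM in lacZ1 livers, and 1.29 and 0.880 CPM in shRictor livers, against 3.02 and 2.45 CPM in lacZ2 livers (log2 fold change -1.02 ± 0.311, edgeR adjusted p = 0.0218). Of these, Psmd9 kept its call in all 19 alternatives run, and each of the other 3 lost it in 8 of 19. Between the controls, lacZ2 minus lacZ1, edgeR called 0 members and 0 of all genes (0%), 0 members had an unadjusted p under 0.05, and DESeq2 called 0 members. The median difference between the lacZ2 and lacZ1 livers was -0.10 over the members.

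The balance between each immunoproteasome subunit and the constitutive subunit it replaces was also compared within each library. It was taken as a ratio of counts per base of the longest transcript, so it differs from the ratio of the CPM above. The ratio of Psmb10 to Psmb7 was 0.400 and 0.571 in the shDnajb9 libraries, against 0.977 and 0.722 in the lacZ1 libraries. In the shRictor libraries it was 0.495 and 0.698, against 0.802 and 1.11 in the lacZ2 libraries. Both knockdowns were thus below both of their controls (exact permutation test, two-sided p = 0.333 in each, the smallest that 2 against 2 allows). The ratio of Psmb8 to Psmb5 was 3.25 and 2.85 in shDnajb9 livers, against 2.09 and 2.01 in lacZ1 livers (exact p = 0.333). In shRictor livers it was 1.94 and 1.64, against 1.58 and 2.97 in lacZ2 livers, which overlap. The ratio of Psmb9 to Psmb6 overlapped between groups in both comparisons. Ratios within a library do not depend on how libraries are scaled, but they do depend on transcript lengths and on the shared sequence of Psmb5.

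Short transcripts were higher in the shDnajb9 libraries as a whole, and proteasome transcripts are short. The longest transcript of the 49 members had a median of 1440 bases, against 3065 bases over 13652 genes with a length. In shDnajb9 minus lacZ1, the median log2 fold change was 0.57 for the 772 genes under 1000 bases, 0.38 for the 1234 genes from 1000 to 1500 bases and -0.22 for the 7034 genes over 3000 bases. In shRictor minus lacZ2 the same medians were -0.06, -0.03 and 0.00. After a correction for length and GC content per library, 9 members were called in shDnajb9 livers, again all higher, with a median of 0.26, while 1897 of the 13767 genes rose. The 9 were Psma2, Psma3, Psma7, Psmb7, Psmb8, Psmb9, Psmd13, Psmd9 and Psmg3. The part of transcript length in the shDnajb9 difference was not tested beyond this correction.

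**Figure D4:**
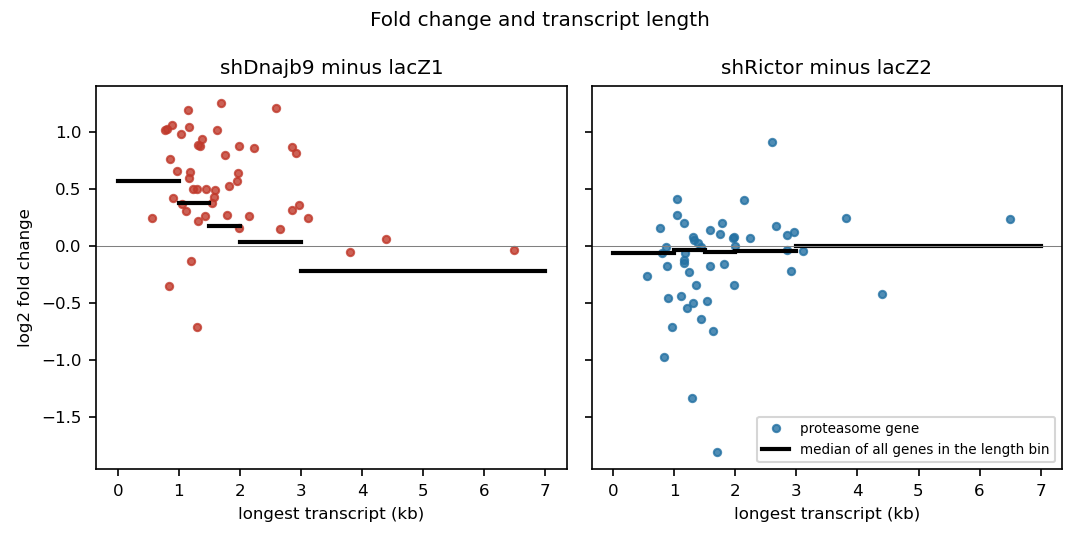
Log2 fold change of each tested proteasome gene (points) against the length of its longest transcript in kb, with the median of all genes in 5 length bins (bars, the last one covering every gene over 3000 bases). In shDnajb9 minus lacZ1 the bars step down from 0.57 to -0.22 with length, and in shRictor minus lacZ2 they stay between -0.06 and 0.00.

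Other genes of the pathway were read from a separate list of 12 proteasome-associated genes outside the name rule. In shDnajb9 livers 3 of these 12 rose and 0 fell, where 11.6% of all genes rose and 12.6% fell. Shfm1, the gene of the small lid subunit Sem1, had 151 and 82.5 CPM in the shDnajb9 libraries, against 41.4 and 62.2 CPM in the lacZ1 libraries (log2 fold change 1.17 ± 0.306, edgeR adjusted p = 0.0167). Pomp, the chaperone that closes the core, had 67.5 and 54.6 CPM in shDnajb9 livers, against 33.6 and 40.8 CPM in lacZ1 livers (log2 fold change 0.71 ± 0.233, edgeR adjusted p = 0.0414). Txnl1, a thioredoxin-like protein bound to the 19S particle, had 252 and 138 CPM in shDnajb9 livers, against 76.8 and 107 CPM in lacZ1 livers (log2 fold change 1.09 ± 0.322, edgeR adjusted p = 0.0279). These 3 groups were apart, with shDnajb9 replicate 1 the highest each time, and all 3 calls were lost without shDnajb9 replicate 1 or lacZ1 replicate 1. The Pomp call was lost in 12 of 21 alternatives run. The ubiquitin receptor Adrm1 had 124 and 95.1 CPM in shDnajb9 livers, against 99.3 and 86.2 CPM in lacZ1 livers, and did not pass the test. Its counts are uncertain, since 25.7% of its 50-base words occur in Gm9774. In shRictor livers 0 of the 12 were called by edgeR, and 0 had an unadjusted p under 0.05.

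Of 8 genes for transcription factors of proteasome genes and the enzymes that activate them, 1 fell in shDnajb9 livers and 0 rose. Over all genes, 12.6% fell and 11.6% rose. The 1 that fell was Nfe2l2, the regulator of the antioxidant response. It had 37.1 and 57.8 CPM in the shDnajb9 libraries, against 128 and 132 CPM in the lacZ1 libraries. The groups were far apart (log2 fold change -1.45 ± 0.264, edgeR adjusted p = 0.00245), and the call held in all 21 alternatives run. In shRictor livers Nfe2l2 had 78.5 and 92.1 CPM, against 133 and 145 CPM in lacZ2 livers (log2 fold change -0.71, edgeR adjusted p = 0.076). Nfe2l1 had 163 and 125 CPM in shDnajb9 livers, against 131 and 105 CPM in lacZ1 livers, and 137 and 196 CPM in shRictor livers, against 108 and 136 CPM in lacZ2 livers. It passed the test in neither comparison, and its shDnajb9 and lacZ1 values overlap. None of the 8 was called in shRictor livers by edgeR, where 2 had an unadjusted p under 0.05.

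Among 14 genes for ubiquitin, its activation and the delivery of substrates, 1 rose and 2 fell in shDnajb9 livers. Over all genes, 11.6% rose and 12.6% fell. The shuttle Ubqln4 had 29.8 and 35.7 CPM in the shDnajb9 libraries, against 74.5 and 60.5 CPM in the lacZ1 libraries (log2 fold change -1.04 ± 0.245, edgeR adjusted p = 0.00981). Its relative Ubqln2 had 9.85 and 11.9 CPM in shDnajb9 livers, against 40.8 and 24.7 CPM in lacZ1 livers (log2 fold change -1.58 ± 0.524, edgeR adjusted p = 0.0445). In the lacZ2 control libraries Ubqln2 had 46.3 and 11.3 CPM, the latter at the level of the shDnajb9 libraries. Rps27a, which encodes a ubiquitin fused to a ribosomal protein, rose (log2 fold change 0.76, edgeR adjusted p = 0.0473), and 26.3% of its 50-base words occur in other genes. The Rps27a call was lost in 13 of 21 alternatives run, DESeq2 and limma-voom among them, with a log2 fold change of 0.24 after the length and GC correction. The Ubqln2 call was lost in 12 of 21, among them RLE factors, limma-voom, the replicate block and each fit without a shDnajb9 or lacZ1 library. That of Ubqln4 was lost in 4 of 21, among them the fits without shDnajb9 replicate 1 and without lacZ1 replicate 1. In shRictor livers 0 of the 14 were called, and 1 had an unadjusted p under 0.05.

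Of 10 other genes of the interferon-driven antigen-processing pathway, which Psmb8 and Psmb9 belong to, 0 were called in shDnajb9 livers and 0 in shRictor livers by edgeR. Over all genes, 24.2% and 18.2% were called. At an unadjusted p under 0.05 there was 1 in shDnajb9 livers, Nlrc5, and 0 in shRictor livers. The transcription factor Irf1 had a log2 fold change of -0.53 in shDnajb9 minus lacZ1, while Psmb8 and Psmb9 had 1.02 and 0.88. In shRictor minus lacZ2 it had -0.36, beside -0.74 and -0.34 for Psmb8 and Psmb9. The class I gene H2-K1 had 5245 and 3053 CPM in shDnajb9 livers, against 2049 and 2013 CPM in lacZ1 livers, and B2m 859 and 804 CPM, against 485 and 641 CPM. Neither passed the test (edgeR adjusted p = 0.134 and 0.262). In shRictor minus lacZ2 their log2 fold changes were also positive, at 0.24 and 0.36. Of the 10 genes, 5 had a positive and 5 a negative log2 fold change in each comparison.

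Immunoproteasome subunits are abundant in leukocytes, so markers of the cells a liver sample holds are given beside them. In shDnajb9 livers 3 of 19 leukocyte markers fell and 0 rose, where 12.6% of all genes fell, and their summed level was 500 and 747 CPM, against 937 and 979 CPM in lacZ1 livers. The 3 were Itgax, Itgam and Cd8a, with Itgax at 5.87 and 10 CPM in shDnajb9 livers, against 47.8 and 39.6 CPM in lacZ1 livers. Itgam is uncertain, since 66.3% of its 50-base words occur in Gm49368. The fold change was positive for 4 of the 19, the Kupffer cell gene Clec4f highest at 0.33, and negative for 15. In shRictor livers 7 of 19 leukocyte markers fell and 0 rose, where 10.9% of all genes fell. The 19 summed to 546 and 608 CPM in shRictor livers, against 772 and 1096 CPM in lacZ2 livers. The 3 markers with the smallest p there included Itgax, at 5.53 and 9.29 CPM in shRictor livers, against 28.0 and 55.3 CPM in lacZ2 livers. The marker sums were lower than in the controls in both knockdowns. Psmb8 and Psmb9 were higher in shDnajb9 livers and, without passing the test, lower in shRictor livers. A link between the marker sums and the immunoproteasome subunits was not tested. Hepatocyte markers gave calls in the other direction. In shDnajb9 livers 5 of 7 rose, where 11.6% of all genes rose. The 7 summed to 78051 and 57637 CPM there, against 36691 and 50204 CPM in lacZ1 livers. In shRictor livers 4 of 7 rose, where 7.31% of all genes rose. The 7 summed to 58304 and 61272 CPM there, against 20585 and 39209 CPM in lacZ2 livers. Alb was the exception in shDnajb9 livers, with 22417 and 25506 CPM, against 26249 and 35452 CPM in lacZ1 livers (log2 fold change -0.36, edgeR adjusted p = 0.66). In whole liver, a change in the number of cells of a type and a change in RNA per cell cannot be told apart, and the part of either in the proteasome values was not tested.

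**Figure D5:**
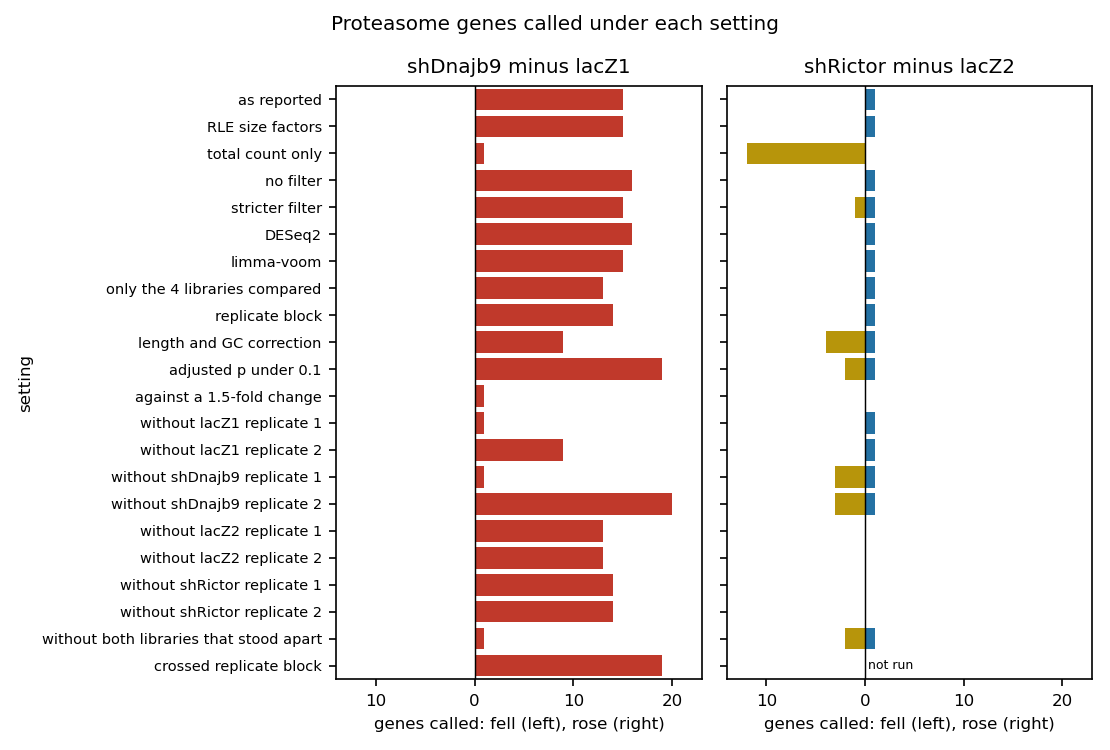
Number of the 49 tested proteasome genes that rose (bars to the right) and fell (bars to the left) under each setting, shDnajb9 minus lacZ1 on the left and shRictor minus lacZ2 on the right. In shDnajb9 livers every call was a rise, 15 as reported, where 24.2% of all genes were called. In shRictor livers the count was 1 as reported, where 18.2% of all genes were called. With total counts alone it was 12, all of them falls, where 23.6% of all genes were called.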

How the data were processed

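The deposited files hold raw counts of reads per gene symbol, 1 table per library, made with HTSeq after trimming with cutadapt on genome build mm10, per the submitters' processing notes. The aligner, the annotation, the tool versions and the strand setting are not given in the sources used here. Reads in the classes that name no gene were kept out of library sizes and tests: between 22.9% and 42.0% of all reads were not uniquely aligned, between 19.2% and 32.3% lay in no feature and between 0.957% and 1.18% were ambiguous. A multi-copy gene can lose reads to the first class.

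Genes were kept by edgeR's filterByExpr (minimum count 10), scaled by TMM and fitted with the robust quasi-likelihood test on 4 group means (edgeR 4.0.16, limma 3.58.1, R 4.3.3). The 5 contrasts were each knockdown against its lacZ group, their mean, their difference and lacZ2 minus lacZ1, called at an adjusted p under 0.05. edgeR's common dispersion was 0.209 as a coefficient of variation. The median standard error of a member's log2 fold change was 0.270 in shDnajb9 minus lacZ1 and 0.268 in shRictor minus lacZ2. With 2 libraries per group, replicates differed by more than counting error (chi-square over its degrees of freedom, 18.2 or more). The fit was tested on simulated counts with known changes in well-counted genes. In shDnajb9 minus lacZ1 it called 44% of 2-fold and 99% of 4-fold changes. For the difference between the knockdowns it called 11% of 2-fold and 86% of 4-fold changes, so that test misses most 2-fold differences. Alternatives were RLE factors, total counts, other filters, DESeq2 1.42.0, limma-voom, the 4 libraries of a contrast alone, a replicate block, a length and GC offset, other thresholds and each library left out.

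The members and the lists of other genes were chosen with earlier results of these data known. Named by rule were the catalytic subunits, the 3 called members with the smallest p per role and knockdown, members called in any other contrast, a few known regulators, and up to 3 called genes per list and knockdown. Other genes given with values, such as Psma1, Psmd1, Psmd14, Tap1, H2-K1, B2m and Clec4f, were named outside this rule. Transcript lengths, positions and shared 50-base words came from GENCODE M21 (98.3% of entries matched), and promoters from RefSeq GRCm38.p6. Genes described singly that share 20% or more of their words have that share given, and their counts are uncertain.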

Additional observations from a re-analysis of the deposited data

Results flagged for a closer look

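The share of all reads that the counting set aside as not uniquely aligned was higher in every knockdown library than in its controls. It was 41.3% and 42.0% in the shDnajb9 libraries, against 22.9% and 24.9% in the lacZ1 libraries, and 32.7% and 26.7% in the shRictor libraries, against 24.6% and 24.2% in the lacZ2 libraries. These reads are in no value of the report, and which sequences they came from was not tested.

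The summed level of Psmb8, Psmb9 and Psmb10 went opposite ways in the knockdowns. It was 471 and 316 CPM in shDnajb9 livers, against 220 and 238 CPM in lacZ1 livers, and 154 and 170 CPM in shRictor livers, against 205 and 274 CPM in lacZ2 livers. The log2 ratio of shRictor to lacZ2 minus that of shDnajb9 to lacZ1 was -1.35 for the sum, and this difference of sums was not tested. The sum over the 5 activators and inhibitors did likewise with a smaller difference of -0.37, also not tested, with sums of 825 and 707 CPM in shDnajb9 livers, against 606 and 693 CPM in lacZ1 livers, and 574 and 587 CPM in shRictor livers, against 598 and 670 CPM in lacZ2 livers. Of these 5, Psme1 (log2 fold change 0.31 in shDnajb9 minus lacZ1, -0.44 in shRictor minus lacZ2) and Psme2 (0.66 and -0.71) had these signs, Psme3 was positive in both (0.15 and 0.18), and Psme4 (-0.03 and 0.24) and Psmf1 (-0.05 and 0.25) had the opposite signs. No test for a single outlying library was run, since groups of 2 do not allow one.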

How the results depend on the processing

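In shDnajb9 minus lacZ1, RLE factors, both other filters, DESeq2 and limma-voom gave 15 or 16 called members. Total counts gave 1 called member with a median log2 fold change of 0.07, the length and GC correction 9 with a median of 0.26, a test against a 1.5-fold change 1, and leaving out shDnajb9 replicate 1 and lacZ2 replicate 1 together, the libraries with the lowest and highest TMM factors (0.743 and 1.28), 1 with a median of 0.31. Leaving out 1 library gave between 1 and 20 members and medians between 0.31 and 0.76. Of the immunoproteasome subunits, 0 were called with total counts, with the 1.5-fold test and without both of those libraries, and between 0 and 2 with 1 library left out. In shRictor minus lacZ2 the members called were 12 with total counts (median -0.44), 2 with the stricter filter, 5 with length and GC, 3 at an adjusted p under 0.1, 0 with the 1.5-fold test, 3 without both libraries and between 0 and 4 with 1 library left out. Immunoproteasome calls there were 3 with total counts, 1 with length and GC, 1 without both libraries and between 0 and 1 with 1 left out. For the mean of both hairpins, members called were 7 with RLE and with DESeq2, 11 with total counts (median -0.18), 12 at an adjusted p under 0.1, 1 with the 1.5-fold test, 1 without both libraries and between 1 and 15 with 1 left out; 1 immunoproteasome subunit, Psmb10, fell with total counts. For the difference between knockdowns, 1 member, an immunoproteasome subunit, was called without the filter and with DESeq2; its median was -0.34 with length and GC, -0.48 without both libraries and between -0.87 and -0.51 with 1 left out. The median of lacZ2 minus lacZ1 ran between -0.27 and 0.11 with 1 library left out. The share of all genes called moved as well. In shDnajb9 minus lacZ1 it was 28.8% with total counts, 27.7% with length and GC and 9.54% with the 1.5-fold test. In shRictor minus lacZ2 it was 23.6%, 24.9% and 8.14% in that order, and 25% at an adjusted p under 0.1. For the hairpin mean it was 36.1% with RLE, 34.5% with DESeq2, 44.5% with total counts and 44.7% at adjusted p under 0.1. The cause of the changes between settings was not tested.

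Single genes that changed sign, none of them called, were in shDnajb9 minus lacZ1 with total counts Psmb5 (-0.03), Psmb10 (-0.21), Adrm1 (-0.21) and Nfe2l1 (-0.16), and Psmb10 with length and GC (-0.04). In shRictor minus lacZ2 they were Psmb7 (-0.21) and Pomp (-0.24) with total counts, and Psmb6 without both libraries (0.11) and between -0.21 and 0.11 with 1 library left out. Libraries with the same replicate number did not deviate together (correlation -0.30 for shDnajb9 and lacZ1, -0.0321 for shRictor and lacZ2), so numbers do not pair them; with the replicate block 14 members and 3289 genes were called in shDnajb9 minus lacZ1 and 1 member in shRictor minus lacZ2. The crossed block, chosen after seeing the data, called 19 members and 4330 genes. Depth leaves genes near 1 CPM, such as Psma8 and Psmc3ip, with the widest errors.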
